A study of Mus musculus with 12 samples.

Results

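Mouse embryonic fibroblasts that had received HOXB13 were compared with fibroblasts that had received GFP, called vector here, at day 1, before any osteogenic medium was added. The comparison uses 6 of the 12 libraries of the series, 3 HOXB13 and 3 vector, and takes in 13056 of the 55573 genes in the table. These are the autosomal and mitochondrial genes at 1 RPM or more (reads per 1000000, defined with the libraries) in 3 or more of the 12 libraries. The HOXB13 group received the virus RCAS-HOXB13 and the vector group RCAS-GFP, both in MEFs (the fibroblasts) from mice of genotype β-actin-TVA/p53−/−. Both groups therefore lack p53 and carry TVA, the receptor for avian RCAS retroviruses, under the β-actin promoter. Cells of both groups were plated in triplicate wells on gelatin in DMEM with serum and taken the next day, when they were confluent. The sources used here give neither the age or number of the embryos nor whether the virus held human or mouse HOXB13. No source says that the wells came from separate cultures, so the p-values rest on the spread between wells, which can be technical.

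HOXB13 is the homeobox transcription factor at the 5′ end of the HoxB cluster, and it is known for its role in the prostate and the hindmost parts of the body. Fibroblasts are the cells that make and remodel connective tissue matrix, and cultures from whole embryos can hold cells of several origins, among them mesothelium, the epithelial sheet that lines body cavities. ATF4 is a transcription factor that drives amino acid synthesis and import when amino acids are short or the endoplasmic reticulum is under stress. In bulk RNA, fewer cells of a type and less RNA per cell cannot be told apart.

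The libraries held 13529964 to 14938139 gene reads in HOXB13 and 11109392 to 13594129 in vector. Levels are in RPM, gene reads per 1000000 of the authors' TMM-scaled library size, and log2 fold changes are differences of log2(RPM + 1), HOXB13 minus vector, which understate the change of genes with low levels. Over the 13056 genes, log2 levels correlated with Pearson's r of 0.9973 to 0.998 between replicates of one group and 0.9372 to 0.9388 between the groups. The 10 highest genes took 4.869 to 5.015% of gene reads in HOXB13 and 7.326 to 7.777% in vector. Hoxb13 (chromosome 11, 96194316 to 96197447, plus strand, GRCm38) stood at 331, 326 and 324 RPM in HOXB13, against 0.454, 0.52 and 0.15 RPM in vector, so each library fits its label. The groups also differ in Xist, at 0.233 to 0.519 RPM in HOXB13 and 395 to 452 RPM in vector, and in the Y-linked Ddx3y, at 96.8 to 99.3 RPM in HOXB13 and 0 to 0.363 RPM in vector. The virus cannot be told apart from this difference in sex chromosomes, or from any other difference between the cultures, such as their mix of cells, in any result below. Leaving out the genes of X and Y does not remove this limit. Of the fibroblast markers, Col1a1 stood at 5667 to 5809 RPM in HOXB13 and 13480 to 13832 RPM in vector, Pdgfra at 225 to 237 RPM in HOXB13 and 135 to 141 RPM in vector, and Vim at 5165 to 5219 RPM in HOXB13 and 3577 to 3660 RPM in vector.

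A gene was called when limma's adjusted p was under 0.05 and the fold change was at least 2. By that rule 1713 genes, 13.1% of those tested, differed: 926 (7.09%) were higher and 787 (6.03%) lower in HOXB13. The HOXB13 libraries all lay above the vector libraries in 34.9% of tested genes and all below them in 40.1%. The adjusted p alone was passed by 9450 genes (72.4%), so the size of the change decides most calls. Without the TMM factors the median of all genes moves to 0.15 on the log2 scale, from -0.03, and the higher genes make up 66.4% of the calls in place of 54.1%. Calls were most frequent at 2 to 10 RPM, where 14.1% of genes were higher and 10.3% lower. Above 100 RPM the order turned round, with 2.66% higher and 5.14% lower. No autosome stood far from the rest, with median log2 fold changes of -0.16 on chromosome 19 to 0.15 on chromosome 7.

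**Figure D1:**
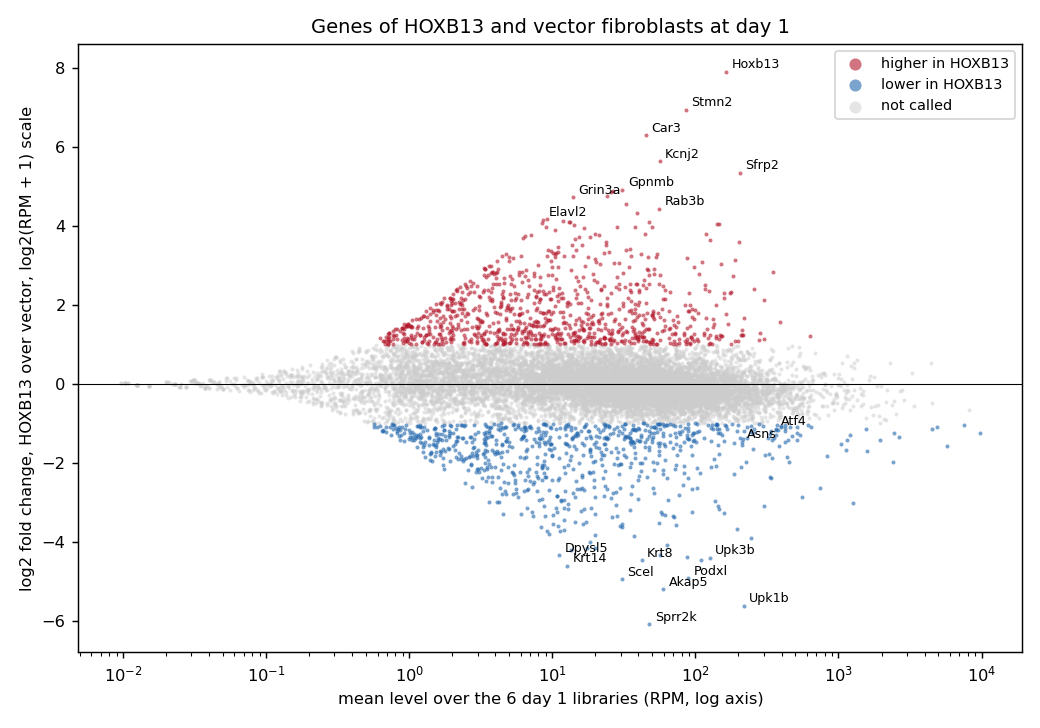
Each point is 1 of the tested genes, with its mean level over the 6 day 1 libraries (RPM, log axis) against its log2 fold change on the log2(RPM + 1) scale, HOXB13 over vector. Red marks the 926 genes called higher, blue the 787 called lower and grey the rest. Hoxb13, Stmn2, Car3 and Kcnj2 lie at the top and Sprr2k, Upk1b and Akap5 at the bottom.

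The genes at the head of the higher side, leaving out Hox, interferon-stimulated and contractile genes, belong to several functions. Stmn2, a microtubule regulator of growing neurites (chromosome 3, 8509360 to 8561606), stood at 170, 170 and 172 RPM in HOXB13, against 0.636, 0.223 and 0.374 RPM in vector. Car3, a cytosolic carbonic anhydrase (chromosome 3, 14863512 to 14872523), stood at 95.1, 89.6 and 86.6 RPM in HOXB13, against 0.182, 0.0742 and 0.225 RPM in vector. Kcnj2, an inward-rectifier potassium channel (chromosome 11, 111066164 to 111076821), stood at 109, 112 and 111 RPM in HOXB13, against 1.27, 1.11 and 1.35 RPM in vector. The genes of this ranking were picked for large fold changes and for no overlap between the groups, so their separation is part of the choice. The vector level of Stmn2 and Car3 is at the edge of detection. The other 12 of the 15 highest were Sfrp2, Gpnmb, Mmp15, Ahrr, Nptx1, Grin3a, Plxnc1, Rab3b, Elavl2, Cpm, Coch and Abi3bp. Rab3b, a GTPase of regulated secretion, stood at 107, 112 and 106 RPM in HOXB13, against 3.09, 4.45 and 4.72 RPM in vector, a log2 fold change of 4.44 ± 0.13 (SE, limma adjusted p = 4.89e-19). Nptx1, a secreted pentraxin of synapses, stood at 44.6, 52.8 and 45 RPM in HOXB13, against 0.545, 0.742 and 1.12 RPM in vector. Abi3bp, a matrix protein, stood at 87.3 to 91.9 RPM in HOXB13 and 4 to 4.53 RPM in vector.

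On the lower side epithelial genes lead. Upk1b, a uroplakin of the urothelium and mesothelium (chromosome 16, 38773184 to 38800328), stood at 7.33, 8.17 and 7.68 RPM in HOXB13, against 440, 425 and 422 RPM in vector. Akap5, a scaffold that holds protein kinase A and calcineurin near the membrane (chromosome 12, 76324891 to 76334153), stood at 1.92, 2.08 and 2.7 RPM in HOXB13, against 119, 114 and 119 RPM in vector. Sprr2k, a small proline-rich cornified envelope protein of a family with near-identical copies, stood at 0.369 to 0.454 RPM in HOXB13 and 93.2 to 98.7 RPM in vector. As on the higher side, no overlap between the groups was a condition for naming these genes. The other 12 of the 15 lowest were Scel, Podxl, Krt14, Krt8, Itga11, Upk3b, Smpd3, Dpysl5, Ptprz1, Pappa2, Rspo1 and Tubb4a. Smpd3, a sphingomyelinase known in bone and cartilage mineralization, stood at 8.2, 6.94 and 6.39 RPM in HOXB13, against 176, 164 and 163 RPM in vector, a log2 fold change of -4.37 ± 0.12 (SE, adjusted p = 1.59e-19). Ptprz1, a receptor phosphatase that binds pleiotrophin, stood at 3.84 to 5.16 RPM in HOXB13 and 106 to 112 RPM in vector.

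The functions were read through 90 gene lists, which hold 2328 of the tested genes. In 78 of them the share of called members was above the 13.1% of all genes, so a share above that figure alone sets no list apart, and the lists are described by their counts and medians. In 12 lists at least 3 members were called and all went one way.

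**Figure D2:**
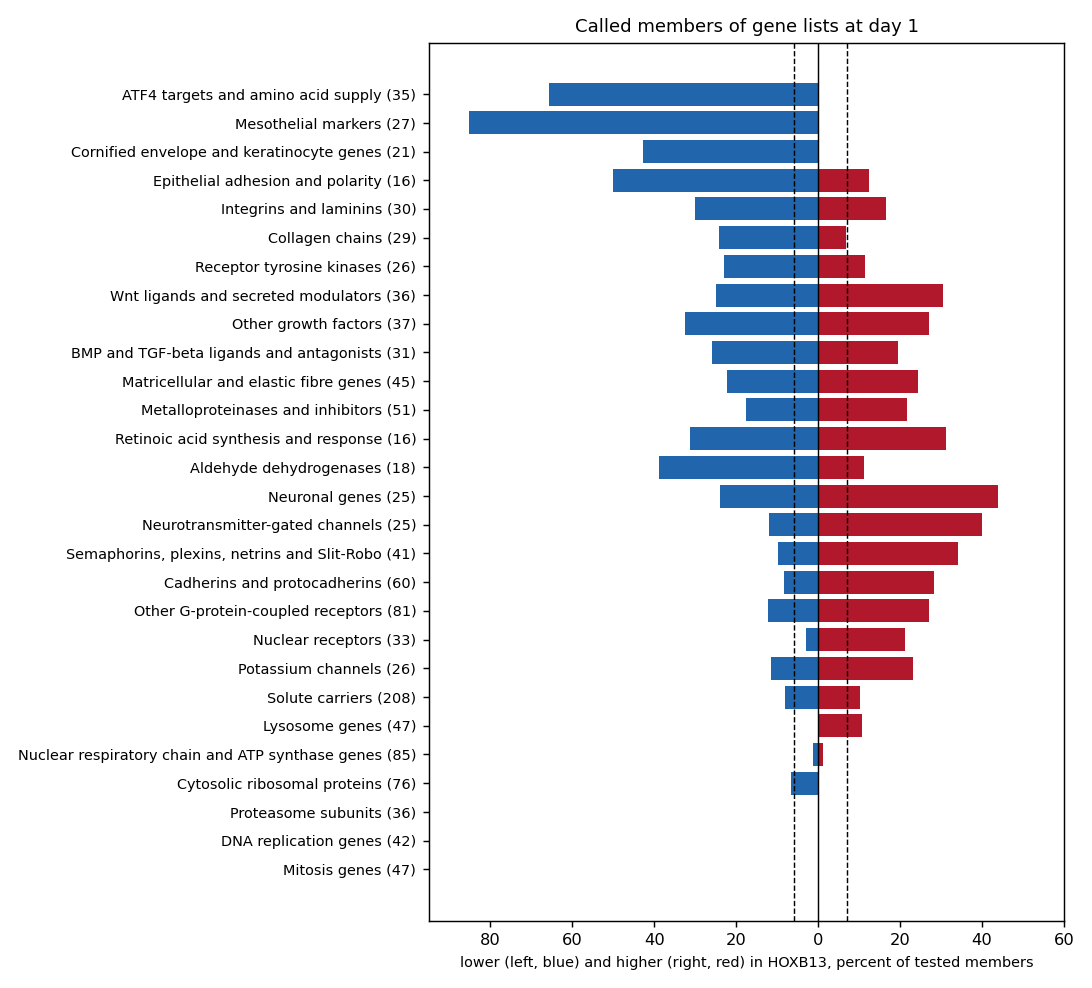
Bars give the percent of tested members called lower (left, blue) and higher (right, red) in HOXB13 for 28 lists, with the number of tested members in brackets. Dashed lines mark the shares over all tested genes, 6.03% lower and 7.09% higher. Mesothelial markers and ATF4 targets have only lower calls, neuronal genes and neurotransmitter-gated channels have mostly higher calls, and DNA replication, mitosis and proteasome genes have none.

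Genes of amino acid supply that ATF4 is known to control were lower in HOXB13. Of the 36 on the list 35 were tested, and 23 fell, none rose and 12 were not called, with a median log2 fold change of -1.21 beside -0.03 over all genes. Without the TMM factors the median was -1.01 with 18 members lower, and edgeR called 21 lower. Atf4 itself (chromosome 15, 80255184 to 80257541) stood at 225, 233 and 225 RPM in HOXB13, against 496, 509 and 503 RPM in vector, a log2 fold change of -1.14 ± 0.03 (SE, adjusted p = 1.11e-20). The groups do not overlap, and in 40.1% of all tested genes the HOXB13 libraries likewise all lay below vector. The log2 fold change of Atf4 is -0.93 without the TMM factors and -0.92 after quantile normalization, which ends its call. Summed over the list, levels ran from 3971 to 4019 RPM in HOXB13 and from 7690 to 7763 RPM in vector.

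The synthesis enzymes on the list fell together. Asns, which makes asparagine (chromosome 6, 7675169 to 7693254), stood at 114, 112 and 108 RPM in HOXB13, against 313, 305 and 308 RPM in vector. Cth, which makes cysteine from cystathionine, had the lowest fold change of the list, at 4.54, 5.45 and 4.3 RPM in HOXB13, against 34.2, 34.7 and 34.2 RPM in vector (log2 -2.62 ± 0.07, adjusted p = 2.64e-19). Psph, the last step of serine synthesis, stood at 20.3 to 24.6 RPM in HOXB13 and 68.3 to 74.5 RPM in vector. Phgdh, the first step of that path, stood at 62.3 to 63.4 RPM in HOXB13 and 158 to 173 RPM in vector, and Pycr1, which makes proline, at 12.5 to 13.3 RPM in HOXB13 and 32.7 to 38.7 RPM in vector. The one-carbon enzymes of mitochondria went the same way: Shmt2 stood at 174 to 183 RPM in HOXB13 and 459 to 470 RPM in vector, Mthfd2 at 87 to 89 RPM in HOXB13 and 214 to 222 RPM in vector, and Aldh1l2 at 63.7 to 66.7 RPM in HOXB13 and 216 to 236 RPM in vector. In each of these enzymes, all of them called lower, every HOXB13 library was below every vector library, as in 40.1% of all tested genes.

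The amino acid carriers and the stress regulators on the list also fell. Slc7a5, which imports large neutral amino acids, stood at 194, 195 and 188 RPM in HOXB13, against 580, 574 and 577 RPM in vector. Slc7a11, the cystine importer, stood at 11.9, 13 and 13.6 RPM in HOXB13, against 42.6, 45.7 and 45.5 RPM in vector, and Slc1a4, which carries alanine and serine, at 30.1 to 33.2 RPM in HOXB13 and 74.9 to 77 RPM in vector. Trib3, a pseudokinase that feeds back on ATF4, stood at 14.5, 13.9 and 14.3 RPM in HOXB13, against 73.9, 81.1 and 76.5 RPM in vector. Chac1, which degrades glutathione, stood at 10.1 to 12.3 RPM in HOXB13 and 33.1 to 36.3 RPM in vector, and Nupr1, a small stress-induced nuclear protein, at 17.3 to 19 RPM in HOXB13 and 42.5 to 45.4 RPM in vector. Not every member passed the 2-fold limit: Slc1a5, a glutamine carrier, had a log2 fold change of 0.72 and Slc38a2 of 0.44, Ddit3 of -0.61, and neither they nor the tRNA synthetase genes Aars, Mars, Sars and Wars (-0.84 to -0.74) were called. Gars, also a tRNA synthetase gene on the list, was called lower. With no fold limit 31 members were lower and 3 higher by limma's adjusted p, beside 38.5% lower and 33.8% higher over all tested genes. Of 23 genes of endoplasmic reticulum chaperones and sensors, none rose and 2, Herpud1 and Ern1, fell, a share of 8.7% that is below the 13.1% of all genes. The median was -0.27, and -0.07 after quantile normalization. Neither gene is called without the TMM factors, and edgeR called 1 lower. Herpud1 also loses its call when HOXB13 replicate 2 (log2 -1.0) or vector replicate 1 (-0.97) is left out.

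**Figure D3:**
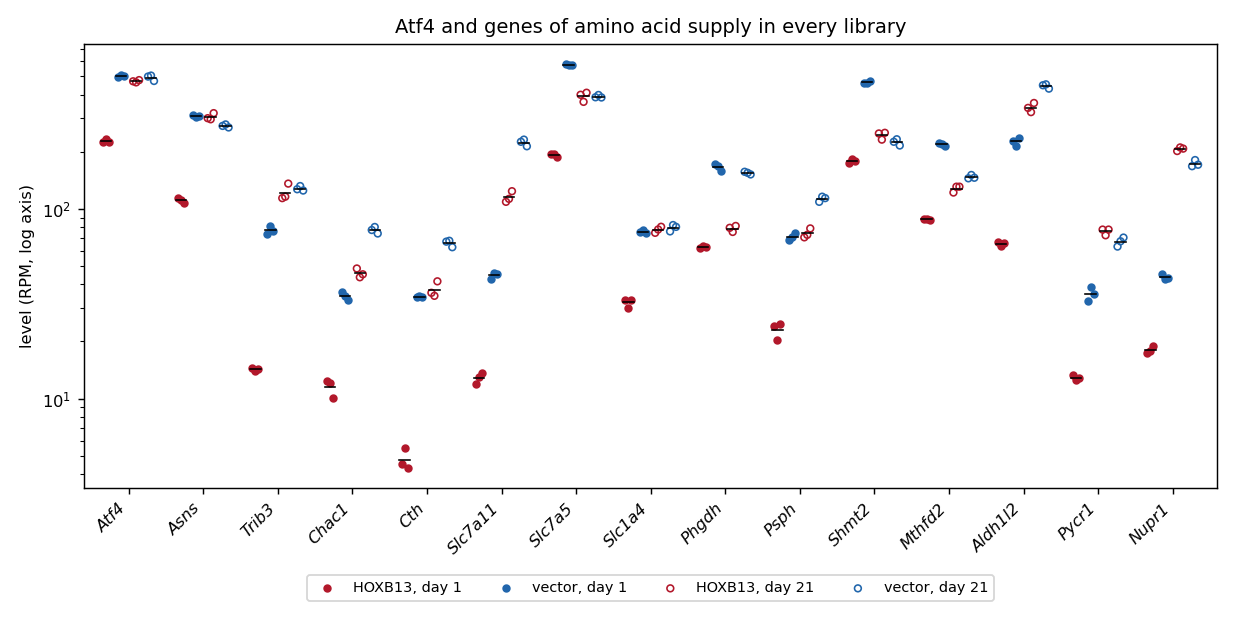
Levels in RPM (log axis) of Atf4 and 14 genes of amino acid supply in all 12 libraries, with filled points for day 1, open points for day 21, red for HOXB13, blue for vector and a line at each mean. At day 1 the HOXB13 points lie under the vector points in each gene shown, while at day 21 the groups lie close together in most of them.

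Because the genes of this list share a known regulator, their promoters were read for the letters of the C/EBP-ATF response element, TGATGNAA, on both strands, in RefSeq sequence of GRCm38.p6 from 250 bases before to 50 bases after the start. Of the 23 lower genes 19 had a promoter in the RefSeq table, and 10 of their 21 promoters (47.6%) held the letters. So did 1 of 11 promoters of the members not called (9.09%), 294 of 12759 promoters of all tested genes (2.3%) and 1304 of all 32851 promoters (3.97%). The list was written from knowledge of ATF4 targets, so the share in it is a description of the list and not a site or a cause. None of the 11 promoters on the list with these letters also held the HOXB13 letters given after the sequences. Only 0.839% of promoters of all tested genes held those, so their absence from 11 says little. Promoters of an enzyme of asparagine, one of proline, a carrier of cystine, a carrier of alanine and serine, the glutathione enzyme and the stress protein show where the letters lie. They are written 5′ to 3′ on the gene's strand, with the matched letters in capitals, their reverse complement TTNCATCA included. The Asns promoter is chr6:7693160-7693459 (minus strand), Pycr1 chr11:120643699-120643998 (minus strand), Slc7a11 chr3:50443564-50443863 (minus strand), Slc1a4 chr11:20332664-20332963 (minus strand), Chac1 chr2:119350992-119351291 (plus strand) and Nupr1 chr7:126625421-126625720 (minus strand).
Asns: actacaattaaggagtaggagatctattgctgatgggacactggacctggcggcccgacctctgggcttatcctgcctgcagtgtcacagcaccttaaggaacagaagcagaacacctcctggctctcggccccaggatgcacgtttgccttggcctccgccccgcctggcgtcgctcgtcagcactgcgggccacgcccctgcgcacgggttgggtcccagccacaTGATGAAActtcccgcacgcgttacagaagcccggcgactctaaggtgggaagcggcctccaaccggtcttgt
Pycr1: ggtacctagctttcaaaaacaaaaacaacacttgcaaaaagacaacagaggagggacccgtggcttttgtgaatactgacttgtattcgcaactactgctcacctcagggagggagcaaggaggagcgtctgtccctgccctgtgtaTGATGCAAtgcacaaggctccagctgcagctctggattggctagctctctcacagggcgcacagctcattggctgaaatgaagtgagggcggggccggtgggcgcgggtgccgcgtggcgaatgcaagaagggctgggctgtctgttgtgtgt
Slc7a11: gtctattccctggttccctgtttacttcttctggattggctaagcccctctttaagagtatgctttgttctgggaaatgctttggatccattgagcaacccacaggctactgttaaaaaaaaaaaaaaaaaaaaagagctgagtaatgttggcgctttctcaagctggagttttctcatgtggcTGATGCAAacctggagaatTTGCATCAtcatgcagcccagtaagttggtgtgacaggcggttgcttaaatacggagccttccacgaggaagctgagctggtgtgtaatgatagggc
Slc1a4: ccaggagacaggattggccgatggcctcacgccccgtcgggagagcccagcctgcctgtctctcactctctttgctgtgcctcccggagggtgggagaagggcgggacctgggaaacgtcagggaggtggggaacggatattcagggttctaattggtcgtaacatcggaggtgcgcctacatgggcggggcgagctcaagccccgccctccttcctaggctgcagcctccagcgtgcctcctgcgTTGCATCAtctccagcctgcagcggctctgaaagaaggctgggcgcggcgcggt
Chac1: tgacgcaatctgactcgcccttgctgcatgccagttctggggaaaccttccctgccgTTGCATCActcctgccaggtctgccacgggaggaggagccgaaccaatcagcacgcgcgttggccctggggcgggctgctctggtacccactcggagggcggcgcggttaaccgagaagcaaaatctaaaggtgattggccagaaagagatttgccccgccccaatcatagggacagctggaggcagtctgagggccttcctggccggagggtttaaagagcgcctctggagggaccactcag
Nupr1: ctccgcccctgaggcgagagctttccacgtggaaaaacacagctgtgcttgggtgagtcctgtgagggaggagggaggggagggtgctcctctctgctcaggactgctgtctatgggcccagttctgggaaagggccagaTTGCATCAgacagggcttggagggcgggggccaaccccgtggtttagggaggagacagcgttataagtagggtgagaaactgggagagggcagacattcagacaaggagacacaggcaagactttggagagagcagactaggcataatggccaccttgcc

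In the Asns promoter the letters start 23 bases before the start of transcription, in Slc1a4 4 bases before it, and in Slc7a11 66 bases before it with another match after them. In Pycr1 they start 103, in Nupr1 110 and in Chac1 193 bases before the start. The same reading for CCAATAAA and CTCGTAAA, letters known for HOXB13 binding, found none in the 15 promoters of the 15 highest genes (10 of them with a promoter in the table) and none in the 12 promoters of the 15 lowest. Over all genes called, 0.996% of promoters of higher genes and 0.655% of promoters of lower genes held them, beside 0.839% of promoters of all tested genes. With shares that low, finding none in so few promoters says little, and no match in this window says nothing of binding elsewhere.

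Markers of mesothelium were lower in HOXB13. Of 28 on the list 27 were tested, and 23 fell, none rose and 4 were not called (Efemp1, Krt19, Nkain4 and Tbx18), with a median log2 fold change of -2.76. Summed over the list, levels ran from 544 to 554 RPM in HOXB13 and from 2272 to 2372 RPM in vector. Wt1, a transcription factor of mesothelium and kidney (chromosome 2, 105126529 to 105173616), stood at 10.4, 9.92 and 9.96 RPM in HOXB13, against 107, 102 and 111 RPM in vector. Lrrn4, a leucine-rich membrane protein, stood at 8.44, 8.04 and 7.93 RPM in HOXB13, against 108, 99.6 and 103 RPM in vector. Msln, the surface protein mesothelin, fell least among the defining markers, at 24.7, 22.9 and 23.3 RPM in HOXB13, against 58.2, 65.5 and 55.1 RPM in vector (log2 -1.30 ± 0.10, adjusted p = 1.02e-10). Vector libraries were above HOXB13 libraries in each of these, as in 40.1% of all tested genes, and the markers were present in both groups. Crb2, a polarity protein of epithelia, stood at 3.44 to 4.28 RPM in HOXB13 and 68.4 to 72.2 RPM in vector, and C3, the central complement protein, at 8.63 to 12.3 RPM in HOXB13 and 102 to 109 RPM in vector. The part that a different share of mesothelial cells has in the lower calls was not tested.

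Genes of other epithelial lists fell beside them, though the lists overlap: Krt14 is on both the mesothelial and the keratin list. Of 53 keratins 10 were tested, 4 fell and 1, Krt13, rose, a call that is lost with a pseudocount of 4. Krt7, a keratin of simple epithelium, stood at 0.649 to 1.05 RPM in HOXB13 and 19.4 to 22.2 RPM in vector. Of 40 genes of epithelial adhesion and polarity 16 were tested, 8 fell and 2 rose, with a median of -1.01. Cdh3, P-cadherin, stood at 77.3, 76.5 and 81.4 RPM in HOXB13, against 342, 333 and 341 RPM in vector, and Cgn, the tight junction protein cingulin, at 2.21 to 2.46 RPM in HOXB13 and 28.4 to 30.3 RPM in vector. Of 51 cornified envelope and keratinocyte genes 21 were tested, 9 fell and none rose. Pkp2, a desmosome protein, stood at 12.4 to 12.8 RPM in HOXB13 and 89.2 to 91.5 RPM in vector. Of the genes taken to define keratinocytes, Krt5 and Trp63 were at or under 0.13 RPM in HOXB13 and at or under 0.0749 RPM in vector. The other two were present in vector: Krt14, a basal keratin, stood at 0 to 0.123 RPM in HOXB13 and 24.6 to 25.9 RPM in vector, and Cdh1, E-cadherin, at 0.0649 to 0.233 RPM in HOXB13 and 2.02 to 2.73 RPM in vector. Gjb2, a gap junction protein of epithelia, stood at 0.389 to 0.43 RPM in HOXB13 and 18 to 19.2 RPM in vector. Mbp, best known from myelin, stood at 3.57 to 3.81 RPM in HOXB13 and 54.5 to 57 RPM in vector, while Sox10, which defines Schwann cells, was at 0 RPM in HOXB13 and at 0 to 0.0909 RPM in vector.

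**Figure D4:**
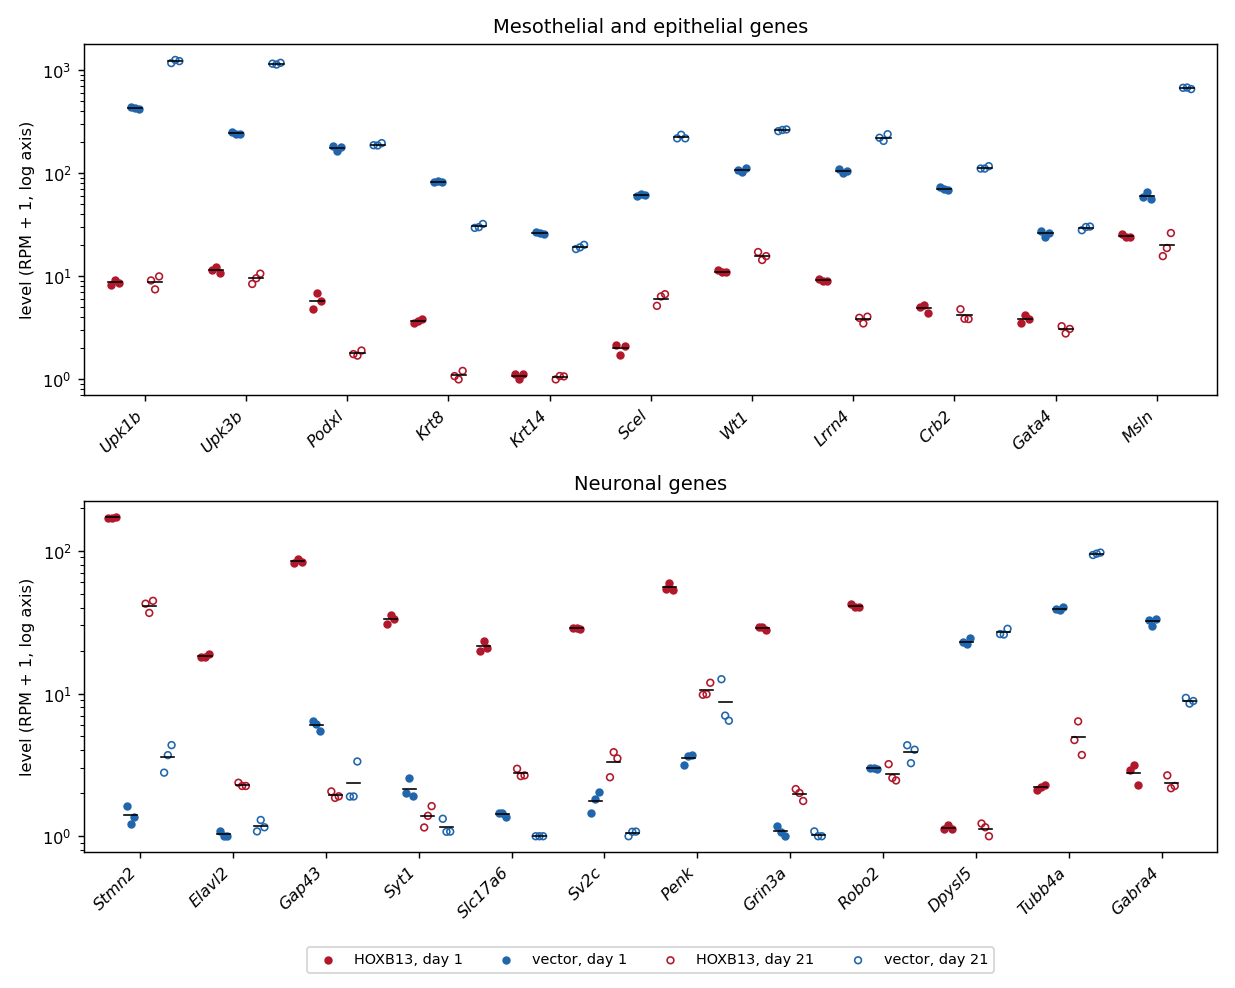
Levels as RPM + 1 (log axis) of 11 mesothelial and epithelial genes (top) and 12 neuronal genes (bottom) in all 12 libraries, with filled points for day 1, open points for day 21, red for HOXB13, blue for vector and a line at each mean. In the top panel red lies under blue at both days. In the bottom panel red lies above blue at day 1 in the first 9 genes and under it in Dpysl5, Tubb4a and Gabra4.

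Genes best known from neurons were mostly higher in HOXB13, though the set was mixed. Of 46 on the list 25 were tested, 11 rose, 6 fell and 8 were not called, with a median of 0.78. Gap43, a growth cone protein, stood at 80.6, 86.8 and 82.2 RPM in HOXB13, against 5.45, 5.12 and 4.49 RPM in vector. Syt1, a calcium sensor of secretory vesicles, stood at 29.7, 34.5 and 32.1 RPM in HOXB13, against 1, 1.56 and 0.899 RPM in vector, and Slc17a6, a vesicular glutamate transporter, at 19, 22.2 and 20 RPM in HOXB13, against 0.454, 0.445 and 0.374 RPM in vector. Elavl2, a neuronal RNA-binding protein, stood at 16.9, 17.1 and 18 RPM in HOXB13 and had reads in only 1 vector library, which puts HOXB13 656 times above vector (95% counting interval 117 to 25924). The members that fell include the collapsin response mediator Dpysl5, at 0.116, 0.195 and 0.123 RPM in HOXB13, against 21.8, 21.2 and 23.3 RPM in vector. Uchl1, a ubiquitin hydrolase, stood at 18.9 to 20 RPM in HOXB13 and 48.4 to 53 RPM in vector. The neuron-defining genes were near 0: Snap25 stood at 0.184 to 0.454 RPM in HOXB13 and 0 to 0.0742 RPM in vector, and Rbfox3 and Elavl3 were at or under 0.195 RPM in every library of day 1.

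Synaptic receptors and carriers showed the same mixture. Of 61 neurotransmitter-gated channels 25 were tested, 10 rose and 3 fell, with a median of 0.65. The 3 glutamate receptor subunits with the largest changes were nearly without reads in vector: Grin3a stood at 28.3, 28.2 and 26.8 RPM in HOXB13, a ratio of 350 to vector (95% counting interval 120 to 1701), Gria2 at 6.7 to 7.8 RPM in HOXB13 (ratio 274, 48.9 to 10852) and Grin2b at 6.75 to 8.43 RPM in HOXB13 (ratio 139, 38.2 to 1152). Among GABA receptor subunits Gabra4 fell, at 1.92, 2.14 and 1.29 RPM in HOXB13, against 32, 28.9 and 32.4 RPM in vector, as did Gabrb1. Slc5a7, the choline carrier, stood at 71.5, 73.1 and 71.4 RPM in HOXB13, against 3.91, 3.19 and 3.82 RPM in vector, and Sv2c, a synaptic vesicle protein, at 27.2 to 27.9 RPM in HOXB13 and 0.454 to 1.05 RPM in vector. Penk, the precursor of enkephalins, stood at 52.5 to 58 RPM in HOXB13 and 2.18 to 2.7 RPM in vector.

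Axon guidance genes, which also steer fibroblasts and vessels, were called mostly higher. Of 47 semaphorin, plexin, netrin and Slit-Robo genes 41 were tested, 14 rose and 4 fell, although the median was 0.02. Among ligands, Sema6a stood at 98.5, 97.4 and 95.8 RPM in HOXB13, against 8.81, 11.1 and 8.84 RPM in vector, and Ntn1 at 59.3 to 63.3 RPM in HOXB13 and 12.8 to 15.7 RPM in vector. Slit2, the most abundant of the secreted ligands named here, stood at 864 to 903 RPM in HOXB13 and 368 to 389 RPM in vector. Among receptors, Robo2 stood at 41.2, 39.6 and 39.4 RPM in HOXB13, against 2, 2 and 1.95 RPM in vector, Plxnc1 at 61.3 to 65.9 RPM in HOXB13 and 1.65 to 1.82 RPM in vector, and Unc5c at 28.1 to 32.7 RPM in HOXB13 and 7.09 to 9.36 RPM in vector. Plxna4 went the other way, at 15.2, 17.9 and 16.6 RPM in HOXB13, against 58.5, 58.4 and 58.9 RPM in vector. Epha4, an ephrin receptor, fell to 8.17 to 9.31 RPM in HOXB13, against 66.2 to 77.4 RPM in vector.

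Cadherin genes were called mostly higher. Of 101 cadherins and protocadherins 60 were tested, 17 rose and 5 fell, with a median of 0.46. The Fat and Dachsous cadherins, which bind each other between cells and set planar polarity, were higher: Fat4 (chromosome 3, 38886940 to 39011985) stood at 633, 592 and 601 RPM in HOXB13, against 81.1, 82.4 and 91 RPM in vector. Dchs1 stood at 145, 147 and 151 RPM in HOXB13, against 51, 43.9 and 45.2 RPM in vector, and Dchs2 at 31.7, 27.5 and 29.2 RPM in HOXB13, against 1, 1.86 and 1.2 RPM in vector. The classical cadherins Cdh6 and Cdh18 rose as well, Cdh6 to 17.6 to 19.4 RPM in HOXB13, against 1.41 to 1.54 RPM in vector, and Cdh18 to 42.6 to 47.7 RPM in HOXB13, against 2.7 to 3.27 RPM in vector. The 5 that fell were Cdh1 (no longer called with a pseudocount of 4), Cdh3, Cdh10, Cdh11 and Cdhr1. Cdh11, the cadherin of mesenchyme, stood at 207 to 217 RPM in HOXB13 and 504 to 535 RPM in vector. Of the 17 that rose, 7 were Pcdhg or Pcdha genes, whose transcripts share exons, so reads could be split between them in the counting. Igsf10, an immunoglobulin-type secreted protein (chromosome 3, 59316735 to 59344394), stood at 274, 276 and 282 RPM in HOXB13, against 15.5, 14.9 and 17.4 RPM in vector.

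Integrins and laminins, receptors for the matrix and parts of the basement membrane, leaned lower, with 5 higher and 9 lower of 30 tested (32 on the list) and a median of -0.32. Itga11, a collagen receptor of fibroblasts, stood at 8.09, 8.63 and 9.03 RPM in HOXB13, against 212, 198 and 219 RPM in vector. Lama5, a basement membrane laminin chain, stood at 68.5, 59.3 and 60.2 RPM in HOXB13, against 540, 534 and 536 RPM in vector, and Itga3, a laminin receptor, at 62.4 to 64.3 RPM in HOXB13 and 306 to 314 RPM in vector. Lama1 stood at 0.649 to 0.815 RPM in HOXB13 and 21.7 to 22.6 RPM in vector. Itga4, a fibronectin and VCAM1 receptor, rose to 34.5 to 38.6 RPM in HOXB13, against 2.64 to 3.56 RPM in vector, and Itgb3 to 77.3 to 79.7 RPM in HOXB13, against 22.5 to 24.9 RPM in vector.

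Wnt signalling genes were called in both directions. Of 55 ligands and secreted modulators 36 were tested, 11 rose and 9 fell, with a median of 0.0. The secreted modulators Dkk2 and Rspo3 rose: Dkk2, an antagonist of the Wnt co-receptors, stood at 242, 236 and 230 RPM in HOXB13, against 17.5, 17.7 and 18.3 RPM in vector. Rspo3, an agonist of the R-spondin family, stood at 65.5, 63.4 and 65.9 RPM in HOXB13, against 6.09, 4.23 and 5.47 RPM in vector, and its relative Rspo2 at 17.2 to 18.1 RPM in HOXB13 and 2.4 to 2.73 RPM in vector. Another R-spondin, Rspo1, went the other way, at 0.815, 1.36 and 0.737 RPM in HOXB13, against 32.5, 33.6 and 35.3 RPM in vector. Lgr6, an R-spondin receptor, stood at 61 to 73.2 RPM in HOXB13 and 9.72 to 11.5 RPM in vector, and the membrane-bound Wnt inhibitor Apcdd1 at 366 to 390 RPM in HOXB13 and 29.7 to 30.5 RPM in vector. The ligands named by their size of change fell: Wnt4 stood at 1.51 to 2.08 RPM in HOXB13 and 20.5 to 22.3 RPM in vector, and Wnt11 at 1.17 to 1.51 RPM in HOXB13 and 18.4 to 20.6 RPM in vector.

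Other secreted signals also split. Of 48 BMP and TGF-beta ligands and antagonists 31 were tested, 6 rose and 8 fell. Tgfb2 stood at 25.7, 24.9 and 25.7 RPM in HOXB13, against 162, 164 and 168 RPM in vector, and Gdf6 at 4.73 to 5.71 RPM in HOXB13 and 42.3 to 49.3 RPM in vector. Bmper, a BMP-binding regulator, stood at 27.5 to 29 RPM in HOXB13 and 134 to 138 RPM in vector. Gdf10 rose, at 18.4 to 22.9 RPM in HOXB13, against 0.816 to 1.5 RPM in vector. Of 43 other growth factors 37 were tested, 10 rose and 12 fell, with a median of -0.37. Gas6, the ligand of the Axl and Mer receptors, stood at 10.5, 10.1 and 9.96 RPM in HOXB13, against 111, 110 and 114 RPM in vector, and its receptor gene Mertk at 22.2 to 25.6 RPM in HOXB13 and 6.53 to 7.18 RPM in vector. Kitl, the stem cell factor, stood at 310, 324 and 322 RPM in HOXB13, against 47.4, 45.4 and 48.3 RPM in vector, and Csf1, the macrophage growth factor, at 365 to 371 RPM in HOXB13 and 1295 to 1309 RPM in vector. The PDGF ligands parted, with Pdgfb at 0.259 to 0.492 RPM in HOXB13 and 14 to 18.2 RPM in vector, and Pdgfd at 79.8 to 87.3 RPM in HOXB13 and 10.7 to 12.2 RPM in vector. Vegfa stood at 55.8 to 57.8 RPM in HOXB13 and 209 to 216 RPM in vector.

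The receptors and binding proteins for such signals changed by member. Of 37 receptor tyrosine kinases 26 were tested, 3 rose and 6 fell. Egfr stood at 28.9, 29.8 and 32.9 RPM in HOXB13, against 240, 242 and 252 RPM in vector, and Met, the receptor for hepatocyte growth factor, at 84.1 to 86.8 RPM in HOXB13 and 229 to 236 RPM in vector. Igfbp5, a binder of insulin-like growth factors, rose to 326, 332 and 371 RPM in HOXB13, against 39.3, 31.9 and 42.7 RPM in vector. Igfbp7 fell to 49.6 to 56.5 RPM in HOXB13, against 212 to 235 RPM in vector. Of 14 tested Notch genes 2 rose and 3 fell, of which 1 is still called lower without the TMM factors. Notch1 rose, at 96.3 to 98.2 RPM in HOXB13, against 33.7 to 38.6 RPM in vector, and its ligand gene Jag1 fell, at 40.6 to 42.9 RPM in HOXB13, against 147 to 149 RPM in vector. The Notch target genes Hey1 and Hey2 parted, Hey1 at 2.98 to 4.73 RPM in HOXB13 and 0.965 to 1.36 RPM in vector, and Hey2 at 1.05 to 1.91 RPM in HOXB13 and 3.37 to 5.09 RPM in vector. Dlk2 was the other member that fell. The calls of Hey1, Hey2 and Dlk2 are lost with a pseudocount of 4 and also when 1 library is left out, which is HOXB13 replicate 3 or vector replicate 2 for Hey1 (log2 0.90 and 0.98), HOXB13 replicate 1 or vector replicate 1 for Hey2 (-0.91 and -0.93) and HOXB13 replicate 3 for Dlk2 (-0.98). Of 13 Hedgehog pathway genes tested 2 rose, the receptor Ptch1, at 61.7 to 65.8 RPM in HOXB13 and 23.5 to 25.7 RPM in vector, and the ligand-binding inhibitor Hhip, at 36.8 to 39.1 RPM in HOXB13 and 1.26 to 2.36 RPM in vector. Both are known as transcriptional targets of the pathway as well as its inhibitors. The only fall there was Disp1, which releases the ligand, at 43.3 to 48.8 RPM in HOXB13, against 139 to 142 RPM in vector.

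G-protein-coupled receptors were more often called higher, with 22 of 81 tested against 10 lower, and a median of 0.11. Avpr1a, a vasopressin receptor, stood at 34.5, 35.2 and 35.2 RPM in HOXB13, against 1.73, 1.86 and 1.57 RPM in vector, and Ptgfr, the prostaglandin F receptor, at 12.8 to 15 RPM in HOXB13 and 1.09 to 1.34 RPM in vector. Adora1, an adenosine receptor, stood at 7.74 to 8.43 RPM in HOXB13 and 0.0749 to 0.297 RPM in vector. Adrenergic receptors Adra2a and Adrb1 fell, Adra2a to 2.4 to 2.68 RPM in HOXB13, against 27.5 to 33.2 RPM in vector, and Adrb1 to 0.815 to 1.49 RPM in HOXB13, against 9.09 to 10.2 RPM in vector. Downstream, cyclic nucleotide enzymes and anchors changed in both directions: Pde9a stood at 11.9 to 13.8 RPM in HOXB13 with 2 vector libraries above 0 (ratio 236, 95% counting interval 65.2 to 1957), and Adcy1 at 1.72 to 2.27 RPM in HOXB13, against 31 to 34.3 RPM in vector. The anchoring protein gene Akap12 stood at 179 to 185 RPM in HOXB13 and 694 to 725 RPM in vector.

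Among transcription factors outside the Hox clusters, nuclear receptors leaned higher, with 7 higher and 1 lower of 33 tested and a median of 0.29. Nr3c2, the mineralocorticoid receptor, stood at 5, 6.1 and 5.41 RPM in HOXB13, against 0.0909, 0.0742 and 0.15 RPM in vector, and Rora at 22.2 to 22.9 RPM in HOXB13 and 5.36 to 7.86 RPM in vector. The lower one was Vdr, the vitamin D receptor, at 1.92, 3.44 and 3.01 RPM in HOXB13, against 27.2, 24.3 and 26.1 RPM in vector. The GATA factors parted: Gata3 stood at 65.8, 68.5 and 68.3 RPM in HOXB13, against 10.5, 9.5 and 12.7 RPM in vector, while Gata4 stood at 2.5 to 3.24 RPM in HOXB13 and 23.1 to 26.8 RPM in vector and Gata6 at 28.5 to 29.8 RPM in HOXB13 and 77 to 87.2 RPM in vector. Of 38 tested paired, Irx and other homeobox genes 7 rose and 5 fell. Tshz2 stood at 57.5 to 61 RPM in HOXB13 and 8.83 to 9.9 RPM in vector, and Eya1 at 40 to 42.8 RPM in HOXB13 and 14.6 to 17.1 RPM in vector. Emx2 stood at 10.1 to 11.6 RPM in HOXB13 and 34.6 to 38.5 RPM in vector, and Eya4 at 9.72 to 10.6 RPM in HOXB13 and 42.3 to 46.4 RPM in vector. Foxa2, a factor of endoderm, stood at 0.737 to 1.34 RPM in HOXB13 and 18.7 to 20 RPM in vector. Glis3 stood at 146 to 159 RPM in HOXB13 and 28.4 to 31.4 RPM in vector, and Ebf3 at 38 to 39.9 RPM in HOXB13 and 7.87 to 10.5 RPM in vector. Jun, a part of AP-1, stood at 274 to 307 RPM in HOXB13 and 120 to 126 RPM in vector.

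Collagen chain genes leaned lower, with 2 higher and 7 lower of 29 tested chains and a median of -0.35. The median was -0.15 after quantile normalization and -0.14 without the TMM factors, and edgeR called 5 higher and 8 lower. Col11a1 stood at 154, 143 and 148 RPM in HOXB13, against 523, 505 and 499 RPM in vector, Col7a1 at 18.1 to 20.8 RPM in HOXB13 and 103 to 111 RPM in vector, and Col8a2 at 0.584 to 1.23 RPM in HOXB13 and 22.5 to 24.2 RPM in vector. Col1a1 fell by 1.24 ± 0.04 on the log2 scale (SE, adjusted p = 4.55e-19) and Col1a2 by 1.09 ± 0.03, but the calls of both are lost after quantile normalization, where Col1a1 has a log2 fold change of -0.25, and that of Col1a2 also without the TMM factors. Of 45 tested matricellular and elastic fibre genes 11 rose and 10 fell. Periostin, Postn, a matrix protein of periosteum and wounds (chromosome 3, 54361109 to 54391037), stood at 198, 202 and 223 RPM in HOXB13, against 1310, 1232 and 1316 RPM in vector. Smoc2 rose, at 267, 267 and 269 RPM in HOXB13, against 30.1, 32.6 and 32.7 RPM in vector, while its relative Smoc1 fell, at 0.233 to 0.676 RPM in HOXB13, against 8.91 to 9 RPM in vector. Mfap5, a microfibril protein, stood at 83.7 to 86.9 RPM in HOXB13 and 8.01 to 8.46 RPM in vector. The hyaluronan synthases Has1 and Has2 fell, Has1 to 0.233 to 1.3 RPM in HOXB13, against 9.28 to 12.1 RPM in vector, and Has2 to 44.5 to 46.1 RPM in HOXB13, against 106 to 115 RPM in vector. The synthase gene Has3 was called higher, but that call is lost with a pseudocount of 4 (log2 0.47).

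Proteases and their inhibitors were called in both directions, with 11 higher and 9 lower of 51 tested metalloproteinases and inhibitors. Mmp15, a membrane-type matrix metalloproteinase, stood at 53.2, 53.2 and 50.7 RPM in HOXB13, against 0.636, 0.668 and 1.12 RPM in vector. Adam8 stood at 26.9 to 28.5 RPM in HOXB13 and 1.36 to 2.45 RPM in vector, and Adam33 at 18.2 to 20.4 RPM in HOXB13 and 2.02 to 2.23 RPM in vector. Adamts9 fell to 27.2 to 28 RPM in HOXB13, against 114 to 120 RPM in vector, and Mmp17 to 7.56 to 8.63 RPM in HOXB13, against 36.2 to 36.9 RPM in vector. Of 23 tested serpins 5 rose and 6 fell, and the list summed to 2147 to 2172 RPM in HOXB13 and 5360 to 5454 RPM in vector. Among those that rose was Serpine2, a serine protease inhibitor that acts on thrombin, at 59.5 to 62.9 RPM in HOXB13 and 6.83 to 7.36 RPM in vector. Fap, a serine protease of activated fibroblasts, stood at 53.9 to 55.5 RPM in HOXB13 and 6.72 to 7.5 RPM in vector.

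Enzymes of retinoid and xenobiotic metabolism included some of the steepest single changes. Aldh1a1, a retinaldehyde dehydrogenase (chromosome 19, 20492715 to 20643465), stood at 6.28, 6.03 and 6.21 RPM in HOXB13, against 122, 117 and 122 RPM in vector, a log2 fold change of -4.08 ± 0.03 (SE, adjusted p = 6.52e-30). Its relative Aldh1a3 rose, at 13.4, 14 and 12.3 RPM in HOXB13, against 1.82, 1.78 and 1.57 RPM in vector, as did Rdh10, the retinol dehydrogenase before it in the path, at 97.3 to 100 RPM in HOXB13, against 13.4 to 14.4 RPM in vector. Of 16 tested genes of retinoic acid synthesis and response 5 rose and 5 fell, and of 18 aldehyde dehydrogenases 2 rose and 7 fell. The aryl hydrocarbon receptor repressor Ahrr stood at 48.9, 54.5 and 49 RPM in HOXB13, against 1, 0.52 and 0.824 RPM in vector. P450 genes that the aryl hydrocarbon receptor is known to induce moved apart. Cyp1b1 stood at 107, 106 and 113 RPM in HOXB13, against 538, 551 and 580 RPM in vector, whereas Cyp1a1 stood at 2.72 to 2.91 RPM in HOXB13 and had no read in vector, which makes it at least 35.3-fold higher, against a limit of 3 reads over the group. With a pseudocount of 4 Cyp1a1 is not called. Among other enzymes Mgst3, a microsomal glutathione transferase, stood at 26.2 to 27.7 RPM in HOXB13 and 3.34 to 4.87 RPM in vector, and Nqo1 at 18.6 to 22.6 RPM in HOXB13 and 4.54 to 6.83 RPM in vector. Lpl, lipoprotein lipase, stood at 15.9 to 18.7 RPM in HOXB13 and 165 to 177 RPM in vector.

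Channels, carriers and carbonic anhydrases were called in both directions. Of 9 carbonic anhydrases tested 4 rose and 1, the secreted Car6, fell. Car1 stood at 6.45 to 6.87 RPM in HOXB13 and had no read in vector, at least 84.1-fold higher by the same limit. Of 26 potassium channel genes tested 6 rose and 3 fell, among them the subunit gene Kcnab1, at 10.1 to 12.7 RPM in HOXB13, against 126 to 129 RPM in vector. Of 208 solute carriers 21 rose and 17 fell, with a median of 0.03, shares near those of all genes. The water channel Aqp1 stood at 29, 29.8 and 29.1 RPM in HOXB13, against 4.27, 2.82 and 3.89 RPM in vector. Abcg2, a drug efflux pump, stood at 177 to 183 RPM in HOXB13 and 52.9 to 59.1 RPM in vector, one of 5 ABC transporters that rose among 28, with none lower.

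Immune signals outside the list of interferon-stimulated genes also differed. Of 42 interleukins and receptors tested 8 rose and 6 fell, of 23 chemokines 4 rose and 7 fell (Cxcl10 and Ccl5, 2 of those that rose, are also known to be induced by interferon), and of 25 TNF ligands and receptors none rose and 5 fell. Il33, an alarmin, stood at 2.44, 3.44 and 2.77 RPM in HOXB13, against 36.8, 36.4 and 38.2 RPM in vector, whereas its receptor gene Il1rl1 stood at 257, 276 and 258 RPM in HOXB13, against 50.8, 54 and 53.3 RPM in vector. Another such pair was Lif, at 2.91 to 3.26 RPM in HOXB13 and 34.1 to 35 RPM in vector, and its receptor gene Lifr, at 257 to 265 RPM in HOXB13 and 53.3 to 60.1 RPM in vector. Tslp, an epithelial cytokine, rose to 14.8 to 14.9 RPM in HOXB13, against 0.742 to 1.18 RPM in vector, and Il7 to 6.05 to 8.11 RPM in HOXB13, against 0.0909 to 0.3 RPM in vector. Ccl2 fell to 21.3 to 22.4 RPM in HOXB13, against 65 to 70.1 RPM in vector, and Cxcl5 rose to 13.2 to 13.4 RPM in HOXB13, against 2 to 2.23 RPM in vector. Tnfrsf11b, the RANKL decoy osteoprotegerin, stood at 0.922 to 1.34 RPM in HOXB13 and 14.6 to 15.2 RPM in vector.

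Several housekeeping groups had few or no calls. None of 42 DNA replication genes, 47 mitosis genes and 36 proteasome genes was called by limma, with medians of -0.24, -0.34 and -0.15. Smaller differences there were mostly lower. With no fold limit, 2 replication genes were higher and 28 lower by limma's adjusted p. By the same rule 1 mitosis gene was higher and 41 lower, and 7 proteasome genes were higher and 24 lower. Over all tested genes 72.4% passed that rule, 33.8% higher and 38.5% lower, so passing it is common. With the 2-fold limit edgeR called none of the first 2 lists and 2 proteasome genes higher. These counts depend on the scaling: without the TMM factors the replication median is -0.03 and the mitosis median -0.13, and the sign of the proteasome median turns, to 0.06. Of 85 nuclear genes of the respiratory chain 1 rose and 1 fell, and of 34 genes of cholesterol and fatty acid synthesis 1, Tm7sf2, rose, a call that is lost with a pseudocount of 4. Lysosome genes had 5 higher and none lower of 47 tested, with a median of 0.51. That share, 10.6%, stands beside 7.09% higher and 13.1% called in either direction over all genes. Without the TMM factors 14 were higher, and edgeR called 5 higher and 1 lower. The lysosomal peptidase gene Tpp1 stood at 133 to 149 RPM in HOXB13 and 57.9 to 65.7 RPM in vector, and the cholesterol carrier gene Npc2 at 264 to 278 RPM in HOXB13 and 125 to 129 RPM in vector. Mitf, a transcription factor that can drive lysosome genes, is itself on this list and among its 5 higher members. It stood at 12.7 to 14.9 RPM in HOXB13 and 2 to 2.62 RPM in vector. Of 76 cytosolic ribosomal protein genes 5 fell, 4 of them (Rps2, Rps18, Rpl29 and Rpl34) with near-identical copies elsewhere in the genome that make their counts uncertain. None rose, and the 6.58% called is near the 6.03% lower of all tested genes. With no fold limit 1 ribosomal gene was higher and 59 lower by limma's adjusted p. The median was -0.28, and -0.08 without the TMM factors. Among 29 genes of p53 targets and cell cycle inhibitors, in cells that lack p53 in both groups, 1 rose and 5 fell, Gadd45g to 30 to 33.3 RPM in HOXB13, against 128 to 143 RPM in vector.

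Genes that define blood cells, endothelium and muscle were all under 1 RPM at day 1. Ptprc was at or under 0.0649 RPM in HOXB13 and 0.15 RPM in vector, Adgre1, Myod1 and Myog had no read, and the macrophage and blood list summed to 4.36 to 6.16 RPM in HOXB13 and 4.57 to 5.27 RPM in vector. Endothelial Pecam1 and Cdh5 were at or under 0.307 RPM in HOXB13 and 0.148 RPM in vector. Other members of the endothelial list did change: of 7 tested 2 rose and 3 fell (71.4% called), and the list summed to 56 to 61 RPM in HOXB13 and 135 to 144 RPM in vector. The VEGF receptor genes Kdr and Flt1 fell, Kdr to 2.59 to 2.79 RPM in HOXB13, against 14.2 to 14.5 RPM in vector, and Flt1 to 30.3 to 36.4 RPM in HOXB13, against 65.8 to 72.3 RPM in vector. The phosphatase gene Ptprb also fell, to 4.89 to 5.41 RPM in HOXB13, against 48.1 to 52.4 RPM in vector. Eng, a TGF-beta co-receptor, rose to 8.11 to 9.71 RPM in HOXB13, against 2.52 to 2.73 RPM in vector, and Tek, the angiopoietin receptor, to 2.39 to 2.7 RPM in HOXB13, against 0.0742 to 0.15 RPM in vector. The call of Flt1 is lost without the TMM factors, and those of Eng and Tek with a pseudocount of 4. Of 16 fibroblast markers 4 rose and 4 fell, with a median of -0.09, and their sum was 23401 to 23721 RPM in HOXB13 and 40181 to 41354 RPM in vector. Thy1, a surface marker of fibroblasts and mesenchymal cells, stood at 103, 109 and 113 RPM in HOXB13, against 571, 554 and 572 RPM in vector.

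The day 1 differences were set beside those of day 21, after culture in the osteogenic medium OsteoMAX-XF, where 3 HOXB13 and 3 vector libraries were compared in the same way. Of the 926 genes higher at day 1, 370 (40.0%) were again higher in HOXB13 at day 21, 36 (3.89%) were lower and 520 (56.2%) were not called. Of the 787 lower genes, 377 (47.9%) were again lower, 42 (5.34%) were higher and 368 (46.8%) were not called. Over all tested genes 8.19% were higher and 8.26% lower at day 21. The size of the difference itself changed between the days in 809 of the higher and 680 of the lower genes by the interaction test, which 68.2% of all genes passed. The lists differed in how many calls recurred at day 21. Of the 23 lower mesothelial markers 20 were again lower, 1 was higher (Slpi, a protease inhibitor) and 2 were not called, and Upk3b, for one, stood at 8.54 RPM in HOXB13 and 1155 RPM in vector. Of the 23 lower genes of amino acid supply 1 was again lower (Fgf21, whose day 1 call is lost with a pseudocount of 4) and 22 were not called, and Trib3 stood at 122 RPM in HOXB13 and 128 RPM in vector. Of the 11 higher neuronal genes 4 were again higher, and Gap43 stood at 0.941 RPM in HOXB13 and 1.38 RPM in vector. The size of the difference changed between the days in nearly all members of these lists by the interaction test, in 23 of the 23 mesothelial markers, 22 of the 23 genes of amino acid supply and 11 of the 11 neuronal genes.

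**Figure D5:**
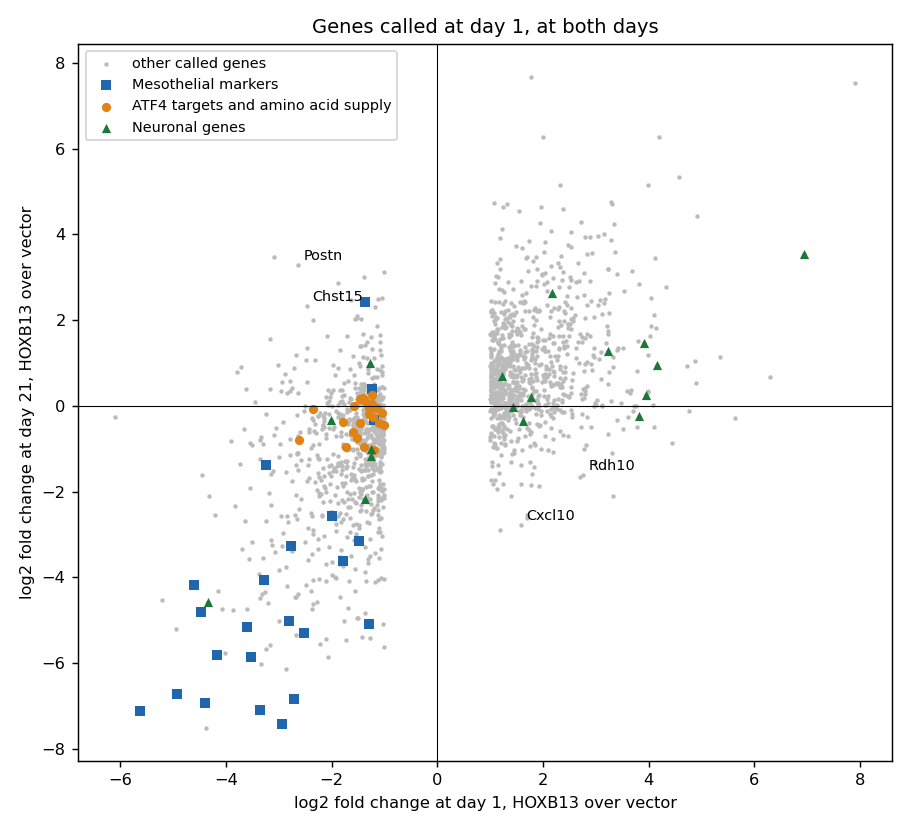
Each point is a gene called at day 1, with its log2 fold change, HOXB13 over vector, at day 1 (horizontal) and day 21 (vertical). Blue squares are mesothelial markers, orange circles genes of amino acid supply and green triangles neuronal genes. Blue squares lie mostly below 0 on both axes, orange circles lie near 0 at day 21, and 78 genes, Postn and Rdh10 among them, changed direction.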

How the data were processed

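Strand-specific messenger RNA libraries (NuGEN kit) of 12 samples were measured, and the 6 of day 1 are described. The deposited signal values are gene reads per 1000000 of the library size scaled by TMM, a factor that evens out differences in composition. Every value was a whole number of reads within a tolerance of 0.01, so reads were recovered and edgeR 4.0.16 on them called 2467 genes. STAR 2.7.2a, HTSeq 0.6.1, edgeR, DESeq2 and the human build GRCh38 are named, per the submitters' processing notes, without their roles. The identifiers are mouse, and the mouse build behind the counts is not stated in these notes or the labels. Names and coordinates are from GENCODE M21 (GRCm38), in which 55480 of 55573 identifiers were found, and 250 genes have no name.

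Genes with 1 RPM or more in 3 libraries were kept, without 454 genes on X and 6 on Y. With limma 3.58.1 log2(RPM + 1) of the 12 libraries was modelled by group (eBayes with trend, R 4.3.3), two-sided, with Benjamini and Hochberg adjustment over all tested genes, a threshold of 0.05 and a 2-fold limit. Adjusted p-values are limma's unless another tool is named. The script was tested on simulated data. The 3 reads over a group that set the limit for a gene with no read come to 0.0614 RPM in HOXB13 and 0.0793 RPM in vector. Ratios of reads have exact 95% intervals, which cover counting error only. Python steps used numpy 2.4.6, pandas 2.3.3, scipy 1.17.1 and matplotlib 3.10.9.

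Members and lists were chosen with earlier results of these data known. Of 93 lists written from general knowledge, 3 were set apart and are not described: Hox, interferon-stimulated and contractile genes, with 88 of 153 tested members called. Named are the 15 highest and 15 lowest called genes that average 5 RPM or more in the higher group, no overlap between the groups, and no predicted, pseudogene or mitochondrial name. Also named are up to 3 called members of each list in each direction, and Hoxb13, Xist and Ddx3y. A further part of the rule, list members with the highest levels, was not used. These give 350 genes beside those 3, and some of them are not reported here. Another 39 called members, Slpi, the members named as not called and the ATF4 letters were chosen after their values were seen. Some list names are wider than their content: immunoglobulin-type adhesion genes include leucine-rich repeat genes.

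The alternatives tried were median of ratios and quantile normalization, no filter or one at 5 RPM, a pseudocount of 0.25 or 4, edgeR, DESeq2 1.42.0, a replicate block, the day 1 libraries alone, and leaving out each library. Values without the TMM factors, genes of X and Y kept, no fold limit and a test against a 1.5-fold limit were also tried.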

Additional observations from a re-analysis of the deposited data

Results flagged for a closer look

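Of the 350 genes named by rule, 12 were called at both days in opposite directions, and the test of the difference itself (limma interaction, day 1 effect minus day 21 effect, on the log2 scale) passed in each. The means are over 3 libraries.

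Postn, the matrix protein periostin, had the largest difference, -5.91 ± 0.09 (SE, adjusted p = 1.23e-23). At day 1 it averaged 208 ± 13.1 RPM in HOXB13 and 1286 ± 47.1 RPM in vector (SD, limma log2 fold change -2.63), and at day 21 1948 ± 89.8 RPM in HOXB13 and 201 ± 30.6 RPM in vector (3.28). The sulfotransferase genes Chst15 and Chst11, which modify chondroitin sulfate, went the same way. Chst15 differed by -4.79 between the days (log2 fold change -2.46 at day 1, 2.33 at day 21) and Chst11 by -3.0 (-1.14 and 1.86), although the day 1 call of Chst11 is lost without the TMM factors. The ephrin receptor gene Epha1 differed by -3.62 (-1.52 at day 1, 2.10 at day 21), the potassium channel gene Kcnf1 by -3.38 (-2.32 and 1.06), the chemokine gene Cxcl14 by -3.87 (-2.67 and 1.19) and the C1q-like gene C1ql3 by -3.70 (-2.09 and 1.62).

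Rdh10, the retinol dehydrogenase gene, led the genes that were higher at day 1 and lower at day 21, with a difference of 4.37 ± 0.09 (SE, adjusted p = 2.14e-21). It averaged 99 ± 1.55 RPM in HOXB13 and 13.8 ± 0.54 RPM in vector at day 1, and 16.9 ± 2.04 RPM in HOXB13 and 53.7 ± 0.731 RPM in vector at day 21 (SD). The interferon-induced chemokine gene Cxcl10 differed by 4.36 (1.58 at day 1, -2.78 at day 21), the chloride channel gene Ano1 by 3.80 (1.93 and -1.86), the glutathione transferase gene Gstm1 by 2.54 (1.41 and -1.13) and the flippase gene Atp8a1 by 2.32 (1.03 and -1.30). The day 1 call of Atp8a1 is lost when HOXB13 replicate 2 or vector replicate 1 of day 1 is left out, where its fold change falls under the 2-fold limit.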

How the results depend on the processing

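The count of genes called at day 1 depended most on the fold limit and then on how low levels are handled. Without a fold limit 9450 passed (4419 higher, 5031 lower), and 1197 were lower in a limma test against a 1.5-fold limit. With a pseudocount of 4 limma called 1060 genes (551 higher, 509 lower), with 421 again called in the same direction at day 21 and 34 in the opposite one, in place of 747 and 78. With a pseudocount of 0.25, 147 turned direction. EdgeR called 1420 genes higher, with 1211 called again and 193 opposite, and DESeq2 gave 1185 and 183. Leaving out 1 library gave 1713 to 1727 genes, 919 to 931 higher, 784 to 804 lower, 736 to 753 called again and 74 to 84 opposite. Leaving out a day 21 library does not alter the day 1 fold changes, and each such setting gave 1713. Of 390 called genes that are named (350 by rule, 39 others and Hoxb13) 296 kept their call in every setting and none changed sign. The call was lost in 79 with a pseudocount of 4, 28 without the TMM factors, 16 after quantile normalization, 4 with edgeR and 3 to 7 when a day 1 library was left out. Deviations of equally numbered libraries correlated at 0.0237, 0.0706 and 0.0231 (unequal numbers -0.0386 to 0.0156, 10325 genes). Every library correlated best with its own number, but all values were under 0.1, so the numbers were not taken as pairs. The replicate block gave 1713, 926, 787, 747 and 78. With equal numbers in every group the block leaves each fold change as it is, so these counts could hardly move.

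The virus cannot be told apart from the sex of the culture or from other differences between the cultures, and no source gives more than 1 culture of each kind. Depth limits genes near 1 RPM, where few reads decide a fold change.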

Other observations

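Some groups that no comparison above describes also held called genes. Of 34 tested imprinted genes 2 rose and 6 fell in HOXB13 at day 1, against 7.09% and 6.03% of all genes, with a median log2 fold change of -0.05. Igf2, the embryonic insulin-like growth factor, stood at 6.46, 5.45 and 5.9 RPM in HOXB13, against 40.1, 41.6 and 40.5 RPM in vector, and Zim1, a zinc finger gene, at 1.04 to 1.4 RPM in HOXB13, against 15.7 to 16 RPM in vector. Of 14 tested histone genes 3 rose, among them H1f2, at 73.3 to 78.7 RPM in HOXB13, against 13.1 to 14 RPM in vector. Histone genes of this kind have near-identical copies and mostly unpolyadenylated messages, so their counts are uncertain.

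Syndecans, glypicans and enzymes that shape heparan sulfate, the sugar chain on which growth factors are held, were called both ways. Of 29 tested 4 were higher and 3 lower. Without the TMM factors 4 were higher and none lower, so the lower calls depend on the scaling, and edgeR called 5 higher and 5 lower. Ndst3 stood at 16.4 to 20.1 RPM in HOXB13, against 2.09 to 2.77 RPM in vector, and Hs3st5 at 4.07 to 4.98 RPM in HOXB13 with no read in vector, at least 56.5-fold higher, against a limit of 3 reads over the group. Of the small leucine-rich proteoglycans of collagen fibrils 3 rose and 3 fell among 9. Ogn stood at 157 to 168 RPM in HOXB13, against 64.6 to 69.8 RPM in vector, and Fmod at 2.56 to 3.44 RPM in HOXB13, against 18.7 to 19.6 RPM in vector.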
